A study of Mus musculus with 29 samples.

Results

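The miR-23/27/24 microRNAs of the mouse come from 2 clusters, and both were measured in the gonadal white adipose tissue (gWAT) of diabetes-prone (DP) and diabetes-resistant (DR) mice. The miR-23a cluster encodes miR-23a, miR-27a and miR-24-2, and the miR-23b cluster encodes miR-23b, miR-27b and miR-24-1. The members were chosen by name and not by measured value, though earlier results of these data were known. They were mmu-miR-23a-3p, mmu-miR-23a-5p, mmu-miR-27a-3p, mmu-miR-27a-5p and mmu-miR-24-2-5p of the first cluster and mmu-miR-23b-3p, mmu-miR-23b-5p, mmu-miR-27b-3p, mmu-miR-27b-5p and mmu-miR-24-1-5p of the second. There are 10 in all, each with a mature and a hairpin row, which makes 20 of the 3097 mature and hairpin rows in the table. miR-24-3p was left out of the members because both clusters encode it. All mice were females of the inbred strain NZO/HIBomDife, fed a high-fat diet for 5 weeks and 10 weeks old at tissue collection. The labels name no engineered allele in either group. The study placed them in the DP group (n = 15) or the DR group (n = 14) by a risk score taken before hyperglycaemia. The groups were thus set by a predicted course and not by a treatment. At the age sampled, the study also reported higher plasma insulin and free fatty acids in DP mice. DR mice served as controls. Each library is 1 mouse, and total counts ranged from 24266300 to 27662601 per library.

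Within a cell, a miRNA hairpin is cut into a duplex whose 5p or 3p arm is loaded into an Argonaute protein, and bases 2 to 8 of the loaded arm, the seed, choose the mRNAs that it represses. miR-23, miR-27 and miR-24 are transcribed together from each cluster as 1 primary transcript, and the 3p arms are the dominant products. miR-27a-3p and miR-27b-3p are known as inhibitors of adipocyte differentiation that repress Pparg, the master regulator of fat cell formation. miR-23a-3p and miR-23b-3p are known for repressing glutaminase, and the miR-23a cluster is abundant in endothelial and myeloid cells.

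The miR-23a cluster lies on chromosome 8 (chr8:84208518-84208921, GRCm38.p6, plus strand, 404 bases) and the miR-23b cluster on chromosome 13 (chr13:63300484-63301275, plus strand, 792 bases). In the GENCODE vM21 annotation, Mir23a and Mir27a overlapped no other gene, and Mir24-2 overlapped an exon of the lincRNA Gm26532. The 3 hairpins of the miR-23b cluster lay within the protein-coding gene 2010111I01Rik on the same strand, in introns of most of its transcripts. Mir27b overlapped an exon in 1 transcript and Mir24-1 in 4 transcripts. All 3 also lay in an intron of Fancc, which runs on the opposite strand. Mature sequences from RefSeq (GRCm38.p6) matched 9 of the 10 members and are shown from 5′ to 3′ with the seed in capitals, since the likeness of the clusters decides which of their rows can be told apart. miR-27a-3p and miR-27b-3p shared their seed, as did miR-24-2-5p and miR-24-1-5p:
miR-27a-3p: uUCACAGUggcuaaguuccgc
miR-27b-3p: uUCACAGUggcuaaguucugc
miR-24-2-5p: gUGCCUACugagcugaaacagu
miR-24-1-5p: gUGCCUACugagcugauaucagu
The seed of miR-23a-3p stood apart from that of miR-27a-3p:
miR-23a-3p: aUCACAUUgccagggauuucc
The other 5p arms had different seeds in the 2 clusters:
miR-27a-5p: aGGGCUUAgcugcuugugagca
miR-27b-5p: aGAGCUUAgcugauuggugaac
miR-23a-5p: gGGGUUCCuggggaugggauuu
miR-23b-5p: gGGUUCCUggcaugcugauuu

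miR-27a-3p (chr8:84208727-84208747) and miR-27b-3p (chr13:63300760-63300780) differed at 1 of 21 bases, C19U when positions are counted from 1 at the 5′ end of miR-27a-3p. miR-27a-5p (chr8:84208685-84208706) and miR-27b-5p (chr13:63300718-63300739) differed at 8 of 22 bases, compared position by position without gaps. The first of these differences was G3A within the seed. miR-24-2-5p (chr8:84208839-84208860) and miR-24-1-5p (chr13:63301213-63301235) shared their first 16 bases. miR-23a-5p is at chr8:84208527-84208548, miR-23a-3p at chr8:84208563-84208583 and miR-23b-5p at chr13:63300492-63300512. The sources do not state how reads that match both copies were counted, so the split of the 3p reads between miR-27a and miR-27b, and between miR-23a and miR-23b, is uncertain.

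Members of the miR-23b cluster rose in DP mice more often than those of the miR-23a cluster. Of the mature rows, 4 of 5 of the miR-23b cluster and 1 of 5 of the miR-23a cluster rose at an adjusted p under 0.05 (edgeR quasi-likelihood test, Benjamini-Hochberg over all 1162 rows tested), where 15.3% of all mature rows rose. Of the hairpin rows, 4 of 5 of the miR-23b cluster and 0 of 5 of the miR-23a cluster rose, where 12.8% of all hairpin rows rose and 24.7% passed in either direction. No member fell. DESeq2, limma-voom and the other edgeR tests (exact, likelihood ratio) gave the same counts, and 0 of the 5 hairpin rows of the miR-23a cluster had an unadjusted p under 0.05. All 20 rows passed the filter, a mean count above 10. The median log2 fold change (DP over DR) was 0.44 for mature and 0.35 for hairpin rows of the miR-23b cluster, and 0.23 and 0.13 for those of the miR-23a cluster, beside 0.017 over all mature and 0.016 over all hairpin rows. These counts do not compare the clusters with each other, which the ratio of counterparts within a mouse does. In whole tissue, fewer cells of a type and less RNA per cell cannot be told apart.

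**Figure D1:**
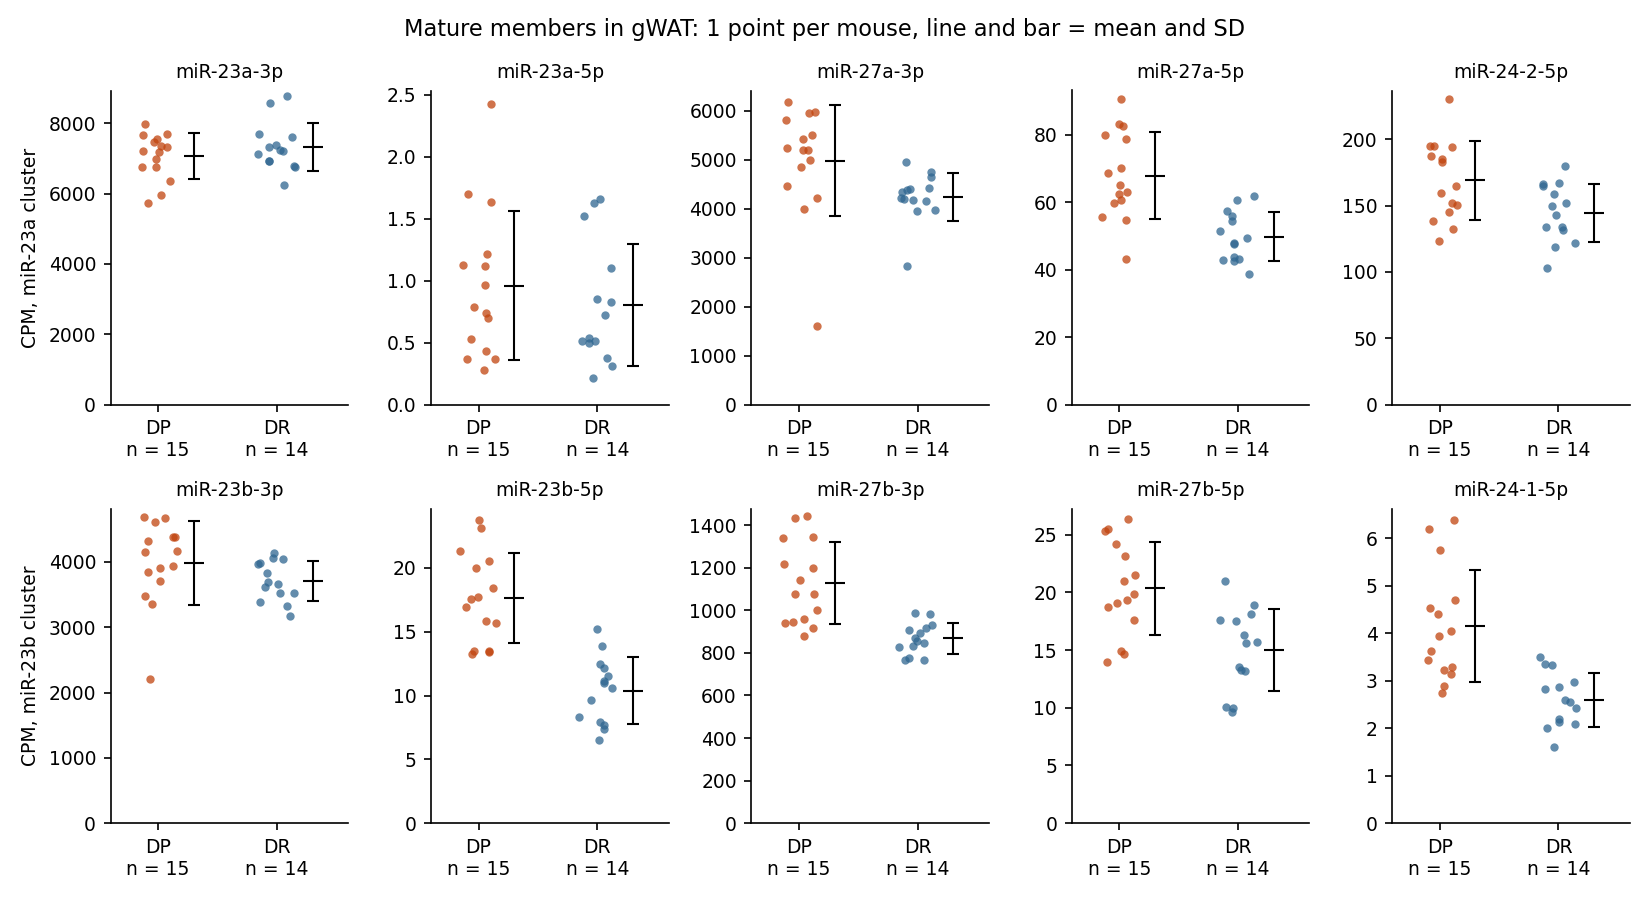
CPM (read counts scaled to library size with TMM factors, y axis from 0) of the 10 mature members in each mouse, with the miR-23a cluster in the top row and the miR-23b cluster in the bottom row. Points are mice, and lines with bars are means and SD of 15 DP and 14 DR mice. For miR-23b-5p the lowest DP mouse (13.2 CPM) lay above 12 of 14 DR mice, while the groups spread over the same range for miR-23a-3p.

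The 3p arms made up nearly all reads of both clusters. In CPM (read counts scaled to library size), mature members of the miR-23a cluster summed to 12278 ± 1357 CPM (mean ± SD, n = 15) in DP and 11765 ± 748 CPM (n = 14) in DR mice. Those of the miR-23b cluster summed to 5157 ± 784 CPM in DP against 4606 ± 354 CPM in DR mice. miR-23a-3p was the highest of the 10 members and miR-23a-5p, the other arm of the same hairpin, the lowest.

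miR-27b-3p, the inhibitor of adipocyte differentiation encoded on chromosome 13, ranged from 878 to 1442 CPM (median 1076) in DP and from 767 to 988 CPM (median 862) in DR mice. All 15 DP mice lay above the DR median and 10 lay above every DR mouse, although the ranges overlapped. Its level was 1127 ± 193 CPM in DP against 868 ± 72.1 CPM in DR mice, a log2 fold change of 0.38 ± 0.07 (SE, adjusted p = 2.0e-04). miR-27a-3p, its near copy from chromosome 8, ranged from 1612 to 6188 CPM (median 5209) in DP and from 2830 to 4950 CPM (median 4282) in DR mice.
Of the DP mice, 10 lay above every DR mouse and 1, replicate 14, lay below all others at 1612 CPM. With that library the log2 fold change was 0.23 ± 0.12 and missed the threshold (adjusted p = 0.150), and without it the value was 0.29 (adjusted p = 0.00351). In the same library miR-27a-5p stood at 62.4 CPM and miR-23a-3p at 7348 CPM, within the range of the other mice, and the hairpin row of miR-27a-3p was the lowest of its group at 4332 CPM. When the mature rows of both miR-27 3p arms were summed, the level was 6102 ± 1254 CPM in DP against 5117 ± 519 CPM in DR mice. Such a sum removes the split of shared reads only if none was counted in both rows or discarded, which is not stated. The log2 fold change of the sum was 0.25 ± 0.10 with an adjusted p of 0.0508. Leaving out 1 of 7 libraries brought the sum past the threshold, with adjusted p values from 7.01e-04 without DP replicate 14 to 0.0455 without DR replicate 7, and between them DP replicates 3, 11 and 12 and DR replicates 5 and 11.

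miR-23a-3p ranged from 5719 to 7988 CPM (median 7208) in DP and from 6242 to 8777 CPM (median 7222) in DR mice, with 7 of 15 DP mice above the DR median. Its log2 fold change was -0.05 ± 0.05 (adjusted p = 0.478), with a 95% interval from -0.16 to 0.05. miR-23b-3p ranged from 2208 to 4687 CPM (median 4156) in DP and from 3165 to 4134 CPM (median 3680) in DR mice.
In 8 DP mice it was above every DR mouse, and in DP replicate 3 it was the lowest of all. Its log2 fold change was 0.10 ± 0.07 (adjusted p = 0.316) with all libraries and 0.15 (adjusted p = 0.0357) without DP replicate 3. The sum of both miR-23 3p arms was 11046 ± 1176 CPM in the DP group against 11035 ± 820 CPM for DR (log2 fold change 0.00, adjusted p = 0.987). Of the 4 sums of 3p arms (mature and hairpin), 0 passed at an adjusted p under 0.05, where 25.6% of all rows in that table passed, and 2 had an unadjusted p under 0.05.

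The 5p arms, usually the discarded strands of these hairpins, were scarcer than the 3p arms and held the largest changes. miR-23b-5p ranged from 13.2 to 23.8 CPM (median 17.6) in DP and from 6.55 to 15.2 CPM (median 10.8) in DR mice. All 15 DP mice lay above the DR median and 11 above every DR mouse. Its log2 fold change was 0.76 ± 0.12 (adjusted p = 1.69e-05), the highest among the 20 rows. miR-23a-5p had a mean count of only 19.4 and as few as 5 counts in a library, and its level was 0.959 ± 0.600 CPM in DP against 0.807 ± 0.491 CPM in DR mice. Its log2 fold change of 0.25 had a 95% interval from -0.39 to 0.90 (adjusted p = 0.594), which is too wide to show a change of the size seen for miR-23b-5p or to exclude it.

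miR-27a-5p was the member of the miR-23a cluster that rose. It ranged from 43.1 to 90.6 CPM (median 65.1) in DP and from 38.7 to 61.8 CPM (median 48.6) in DR mice, with a log2 fold change of 0.45 ± 0.09 (adjusted p = 4.6e-04). Of 15 DP mice, 14 lay above the DR median and 10 above every DR mouse. miR-27b-5p rose by a like amount, from 15.0 ± 3.55 CPM in DR to 20.3 ± 4.03 CPM in DP mice (log2 fold change 0.44 ± 0.12, adjusted p = 0.00586). It ranged from 14.0 to 26.4 CPM (median 19.8) in DP and from 9.61 to 21.0 CPM (median 15.7) in DR mice, and 12 of 15 DP mice lay above the DR median.

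miR-24-1-5p ranged from 2.74 to 6.38 CPM (median 3.95) in DP and from 1.61 to 3.50 CPM (median 2.57) in DR mice, at a mean count of 76.2. All 15 DP mice lay above the DR median and 9 above every DR mouse, and its log2 fold change was 0.67 ± 0.13 (adjusted p = 2.68e-04). miR-24-2-5p ranged from 123 to 230 CPM (median 165) in DP and from 103 to 180 CPM (median 146) in DR mice. Of 15 DP mice, 11 lay above the DR median and 7 above every DR mouse. Its log2 fold change was 0.22 ± 0.09 and did not pass (adjusted p = 0.0618), and it passed without DP replicate 6 (adjusted p = 0.0443), DP replicate 11 (0.0305) or DR replicate 11 (0.0360). miR-24-3p, the arm that both clusters encode, was 6555 ± 2746 CPM in DP against 6032 ± 2180 CPM in DR mice and did not pass (log2 fold change 0.12 ± 0.20, adjusted p = 0.692).

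A second pair of hairpins lies on the opposite strand of the miR-24 hairpins, Mir3074-2 on chromosome 8 and Mir3074-1 on chromosome 13, and whether counting used the strand is not stated. miR-3074-2-3p (chr8:84208839-84208858, minus strand) is shown because all of its 20 bases pair with miR-24-2-5p:
miR-3074-2-3p: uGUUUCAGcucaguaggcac
Its mature row held 27.9% to 37.7% of the summed reads of miR-24-2-5p and miR-3074-2-3p in a library. miR-3074-1-3p held 8.82% to 40.0% of the reads summed with miR-24-1-5p. With the partners summed, a comparison added after the data were seen, miR-24-1-5p had a mature log2 fold change of 0.46 ± 0.10 (adjusted p = 0.00120) and miR-24-2-5p one of 0.20 ± 0.08 (adjusted p = 0.0777). In the hairpin rows the summed miR-24-1-5p no longer passed (log2 fold change 0.17, adjusted p = 0.137).

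The hairpin rows carry the name of an arm and were counted apart from the mature rows. How reads were divided between them is not stated. Their size relative to the mature row differed widely between members. The ratio of mean counts, hairpin over mature, was 4.50 for miR-27b-3p, 2.04 for miR-27a-3p, 0.938 for miR-23a-3p and 0.300 for miR-23b-3p, but 0.0645 for miR-27a-5p and 0.0491 for miR-24-2-5p. The median over 471 names with both rows tested was 1.10.

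In the hairpin rows, miR-27b-5p ranged from 7.29 to 14.4 CPM (median 12.7) in DP and from 5.28 to 10.4 CPM (median 7.78) in DR mice. Of 15 DP mice, 12 lay above every DR mouse, and its log2 fold change of 0.62 ± 0.11 was the highest of the hairpin rows (adjusted p = 5.1e-05). The hairpin row of miR-27a-5p did not follow its mature row, at 3.96 ± 1.005 CPM in DP against 3.67 ± 0.549 CPM in DR mice (log2 fold change 0.11 ± 0.11, adjusted p = 0.496). For miR-27a-5p the hairpin reads per mature read were 0.0581 ± 0.0075 in DP and 0.0740 ± 0.0103 in DR mice. The hairpin rows of miR-23b-5p (log2 fold change 0.44, adjusted p = 0.00504) and miR-27b-3p (0.26, adjusted p = 0.00463) rose.
The hairpin row of miR-24-1-5p also rose (0.35, adjusted p = 0.0365), a call that was lost without any 1 of DP replicates 7, 8, 10, 13 and 14 or DR replicates 1, 2, 6, 10 and 13, with adjusted p values between 0.0521 and 0.0752. The hairpin row of miR-23b-3p was 1165 ± 139 CPM in DP against 1151 ± 114 CPM in DR mice (log2 fold change 0.02, adjusted p = 0.879).

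**Figure D2:**
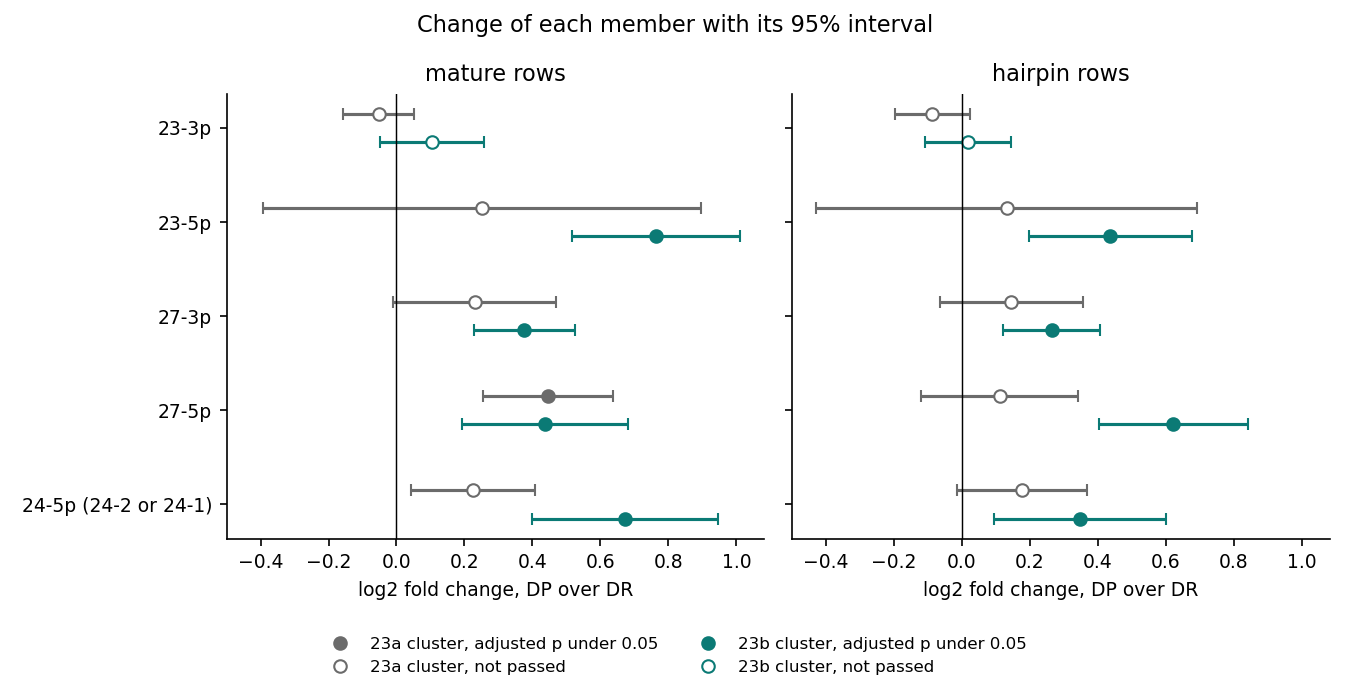
Log2 fold change (DP over DR, x axis) of each member with its 95% interval, mature rows on the left and hairpin rows on the right, the miR-23a cluster in grey and the miR-23b cluster in green. Filled circles passed an adjusted p under 0.05. Of 9 filled circles 8 belong to the miR-23b cluster, and the interval of miR-23a-5p spans from -0.39 to 0.90 in the mature rows.

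Whether the clusters differed in their response was tested on the ratio of each miR-23b cluster member to its counterpart of the miR-23a cluster within a mouse. All 10 ratios (5 mature and 5 hairpin) were higher in DP than in DR mice, and 2 of them passed at an adjusted p under 0.05, where 24.5% of the 453 paralog ratios in the table passed in either direction (limma on log2 CPM ratios, adjusted over those 453). The share of the members thus did not exceed that of the table. The 453 ratios hold every pair of rows within a miRNA number, so large families are counted many times. Of the 5 mature ratios 1 passed, where 30.8% of all mature paralog ratios did. The log2 ratio of miR-24-1-5p over miR-24-2-5p, mature, ranged from -5.78 to -4.91 (median -5.29) in DP and from -6.26 to -5.47 (median -5.69) in DR mice. It was higher in DP by 0.42 ± 0.10 on the log2 scale (adjusted p = 0.00195, 13 of 15 DP mice above the DR median). miR-24-1-5p supplied 2.39% ± 0.442 of the reads of both in DP and 1.77% ± 0.298 in DR mice. With the antisense partners summed the difference was 0.23 ± 0.09 and did not pass (adjusted p = 0.0804). Such a sum adds the partner's own reads, so it cannot show whether this call depends on how strand was counted. In the mature rows miR-3074-1-3p had a group-centred r of -0.23 with miR-24-1-5p, and miR-3074-2-3p one of 0.84 with miR-24-2-5p.

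The hairpin ratio of miR-27b-5p over miR-27a-5p ranged from 0.77 to 2.50 (median 1.63) in DP and from 0.44 to 1.53 (median 0.95) in DR mice on the log2 scale. It was higher in DP by 0.53 ± 0.15 (adjusted p = 0.00987), and 14 of 15 DP mice lay above the DR median. The difference was 0.50 in libraries numbered below 200 (adjusted p = 0.135) and 0.59 in those from 200 on (adjusted p = 0.203), and passed in neither alone. Its mature counterpart differed by 0.01 ± 0.11 (adjusted p = 0.965), with a 95% interval from -0.20 to 0.23, since both mature arms rose by like amounts.

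Of the remaining mature ratios, that of miR-27b-3p over miR-27a-3p differed by 0.18 (95% interval -0.10 to 0.45, adjusted p = 0.488) and by 0.07 without DP replicate 14 (adjusted p = 0.683), and that of miR-23b-5p over miR-23a-5p by 0.56 (-0.02 to 1.14, adjusted p = 0.176). The ratio of miR-23b-3p over miR-23a-3p differed by 0.14 in the mature rows (adjusted p = 0.171) and by 0.10 in the hairpin rows (adjusted p = 0.137). Without DP replicate 3, the library with the lowest miR-23b-3p, these became 0.19 (adjusted p = 0.00621) and 0.12 (adjusted p = 0.0173).

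**Figure D3:**
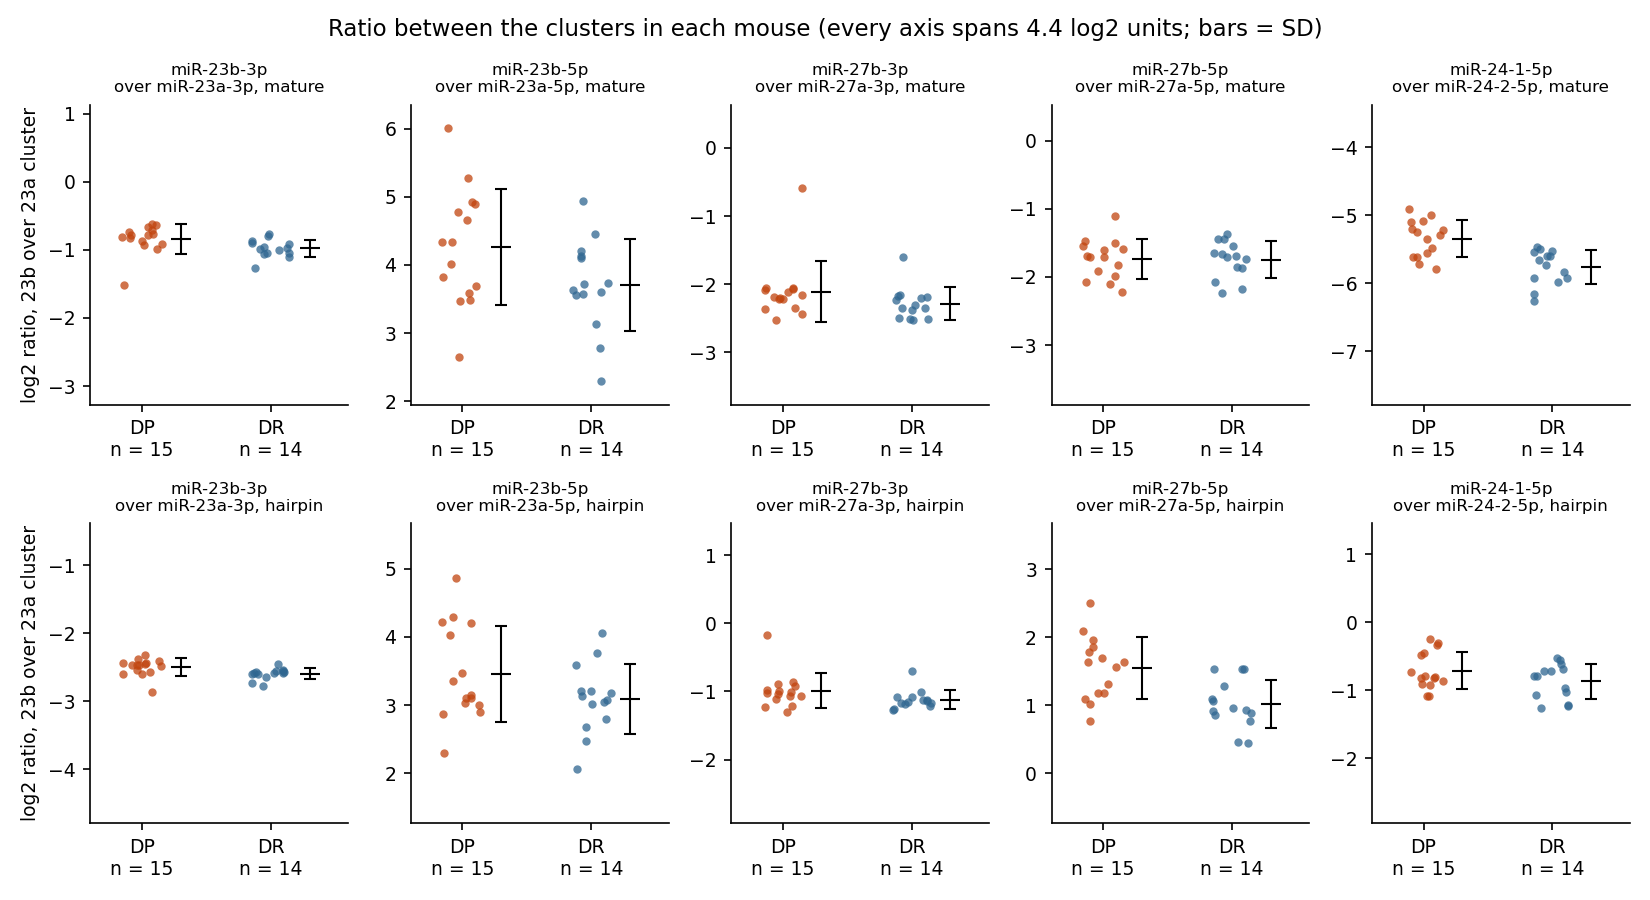
Log2 ratio of each miR-23b cluster member over its miR-23a cluster counterpart (y axis, log2 units) in each of 15 DP and 14 DR mice, mature rows above and hairpin rows below, with means and SD. For miR-24-1-5p over miR-24-2-5p, 13 of 15 DP mice lie above the median of DR mice, and DP replicates 14 and 3 stand apart in the panels of miR-27-3p and miR-23-3p.

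The arms of 1 hairpin come from the same precursor molecule, and the ratio of 5p to 3p reads was compared within each mouse. Of 8 arm ratios, 2 passed at an adjusted p under 0.05, both of miR-23b, where 2.65% of the 302 stems in the table passed. In the mature rows the 5p arm supplied 0.446% ± 0.0864 of the miR-23b reads in DP and 0.278% ± 0.0596 in DR mice. The log2 ratio was higher in DP by 0.69 ± 0.11 (adjusted p = 3.67e-04), in 15 of 15 DP mice above the DR median. A two-sided permutation test over all libraries gave p = 1e-05, the smallest that 100000 permutations can give. In libraries from 200 on alone this mature difference was 0.65 and did not pass (adjusted p = 0.665). The 3p arm in this ratio, miR-23b-3p, is one of the rows whose split of reads is uncertain. In the hairpin rows the miR-23b ratio differed by 0.44 ± 0.12 (adjusted p = 0.0470). It passed in neither part of the library numbers (0.52, adjusted p = 0.115 below 200, and 0.42, 0.802 from 200 on).
That hairpin call was lost when any 1 of 20 libraries was left out, with adjusted p values from 0.0579 to 0.104. These were DP replicates 2, 3, 4, 5, 7, 8, 9, 10, 11, 12, 13 and 15 and DR replicates 1, 2, 3, 6, 9, 10, 12 and 14.

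For miR-27b the arm ratio differed by 0.36 ± 0.11 in the hairpin rows (adjusted p = 0.0876), and passed without DP replicate 2 (adjusted p = 0.0452) or DR replicate 8 (0.0325). In the mature rows the miR-27b ratio differed by 0.08 ± 0.11 (adjusted p = 0.886). The arm ratio of miR-27a differed by 0.25 ± 0.16 in the mature rows (adjusted p = 0.636), and its highest DP value, a 5p share of 3.72%, came from DP replicate 14, the library with the low miR-27a-3p. Without that library the difference was 0.14 (adjusted p = 0.718). The arm ratio of miR-23a differed by 0.27 ± 0.29 in the mature rows (adjusted p = 0.859).

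**Figure D4:**
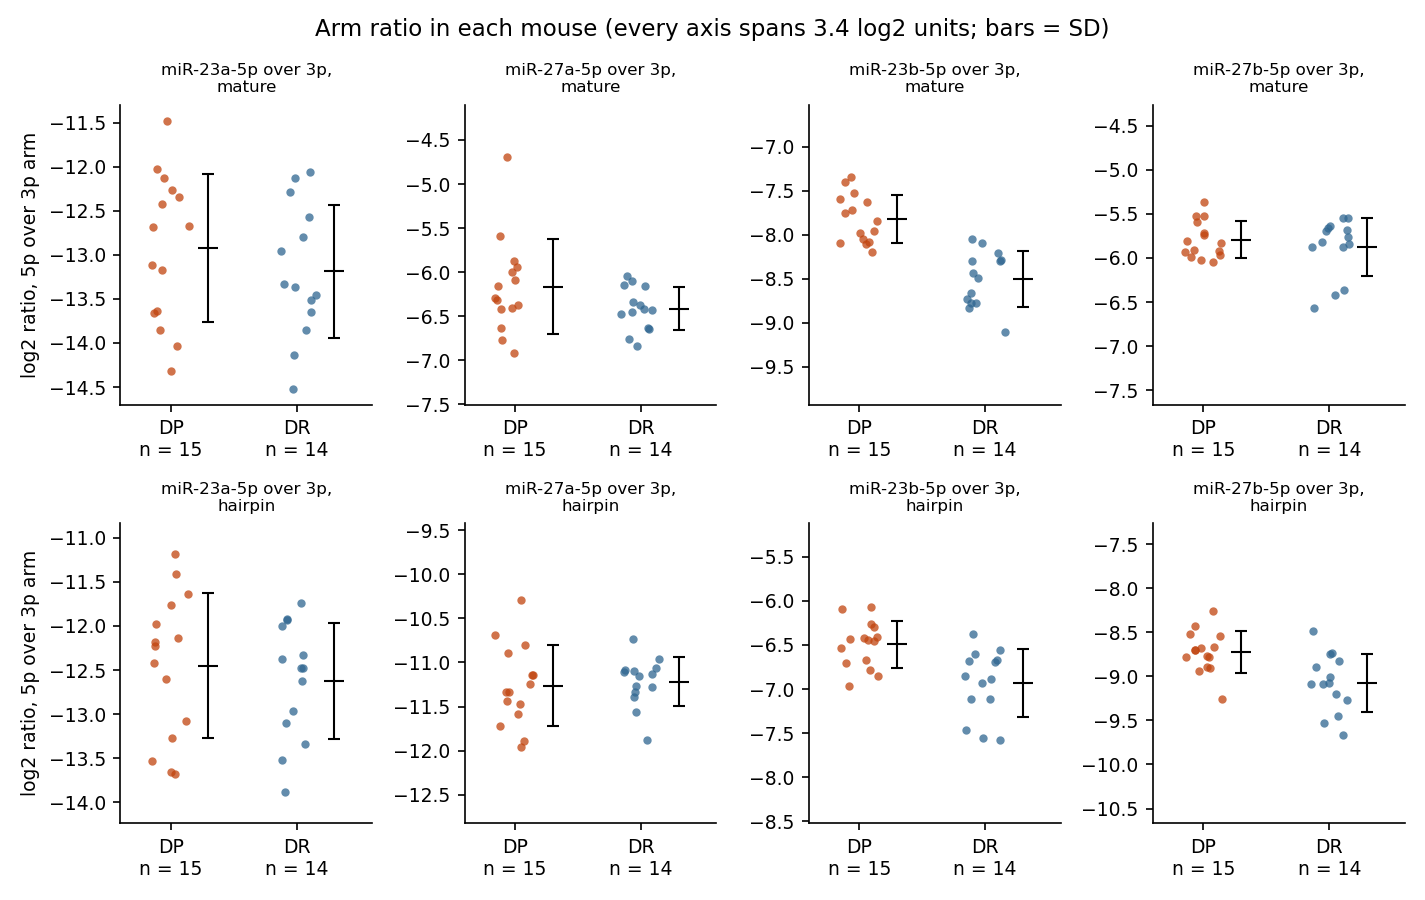
Log2 ratio of 5p over 3p reads (y axis, log2 units) of the 4 hairpins with both arms among the members, in each of 15 DP and 14 DR mice, mature rows above and hairpin rows below, with means and SD. In the mature miR-23b panel all 15 DP mice lie above the DR median, and the difference was 0.69 on the log2 scale.

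Members of 1 cluster are cut from the same transcript, yet their levels over mice were only partly alike. After the group means were removed, Pearson's r of log2 CPM over the 29 mice had a median of 0.47 for the 10 pairs within the miR-23b cluster (0.19 to 0.63) and of 0.11 for the 10 pairs within the miR-23a cluster (-0.22 to 0.52). Pairs within the miR-23a cluster include miR-23a-5p, with a mean count of 19.4, and miR-27a-3p, which was low in DP replicate 14. The 25 pairs between the clusters had a median r of 0.29, and the 5 pairs of counterparts among them one of 0.54. The highest were miR-24-2-5p with miR-24-1-5p (0.67) and, within the miR-23b cluster, miR-23b-3p with miR-27b-3p (0.63). These correlations are descriptions, since the values of a mouse share a library and its depth, and counterparts may also share reads.

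**Figure D5:**
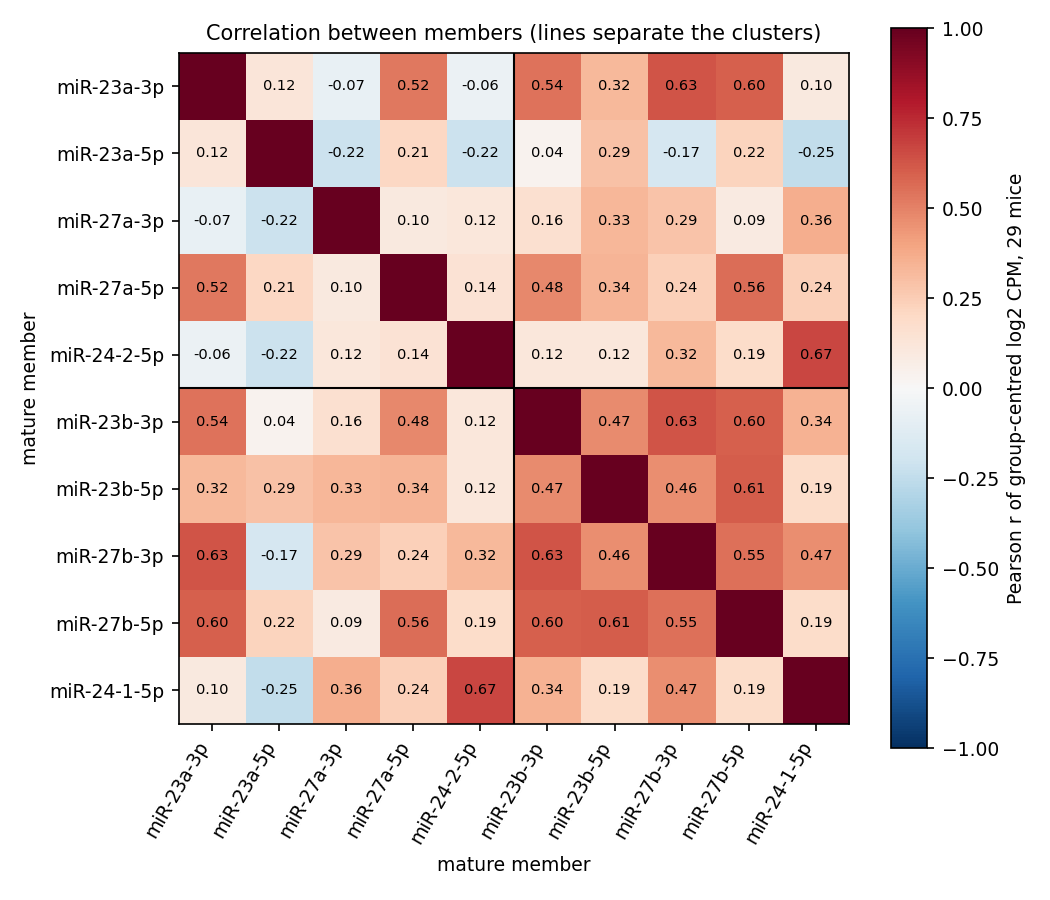
Pearson's r of group-centred log2 CPM between the 10 mature members over 29 mice (colour and printed value), with lines between the clusters. The lower right block, the miR-23b cluster, holds values from 0.19 to 0.63, and the upper left block, the miR-23a cluster, values from -0.22 to 0.52.

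Among 563 mature rows outside both clusters, the nearest to miR-27b-3p over the 29 mice was miR-221-3p (r = 0.64, Spearman's rho = 0.67), which also rose in DP mice. miR-23b-5p was most like miR-34b-3p (r = 0.86, rho = 0.87), with miR-222-3p next (r = 0.67), and miR-27b-5p was most like miR-34a-5p (r = 0.66). The nearest to miR-23b-3p was miR-342-3p (r = 0.69), and to miR-24-1-5p miR-136-5p (r = 0.67). miR-24-2-5p was most like its antisense partner miR-3074-2-3p (r = 0.84) and then miR-136-5p (r = 0.79). miR-27a-3p had its highest r with miR-341-3p (0.94, but rho = 0.60), miR-21a-3p (0.90, rho = 0.73) and let-7i-3p (0.88, rho = 0.61). For these 3, rho was lower than r, and miR-27a-3p was low in DP replicate 14 and DR replicate 14. miR-23a-3p was most like miR-350-3p (r = 0.70), miR-23a-5p like miR-412-5p (r = 0.77) and miR-27a-5p like miR-195a-3p (r = 0.65).

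Of 14 miRNAs listed as inhibitors of adipocyte differentiation, which include miR-27a-3p and miR-27b-3p, 12 were tested in their mature rows. Of these, 4 rose and 2 fell, where 27.2% of all mature rows passed in either direction, and the median log2 fold change was 0.19. Outside the clusters 3 of 10 rose and 2 fell. The most abundant was miR-222-3p, which represses the cell cycle inhibitor p27 (log2 fold change 1.16, adjusted p = 6.53e-06). miR-27b-3p thus stood among rising and falling members of the list.
Within 100 kb of the clusters, miR-181c-5p, encoded 29.6 kb from the miR-23a cluster on the minus strand, was 250 ± 20.3 CPM in DP against 287 ± 37.6 CPM in DR mice and fell by 0.20 on the log2 scale (adjusted p = 0.0157). Its hairpin row did not pass (log2 fold change -0.08, adjusted p = 0.352). The mature row of the other arm, miR-181c-3p, did not pass either, at 0.24 (adjusted p = 0.125). miR-181d-5p, from the same neighbouring locus, stood at 39.7 ± 5.08 CPM (DP) and 39.5 ± 8.25 CPM (DR, adjusted p = 0.958).

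Marker miRNAs of other cell types moved between the groups too. Of all mature rows 15.3% rose and 27.2% passed in either direction. Of 9 myeloid miRNAs 7 rose and 0 fell, and their summed level ranged from 17742 to 36143 CPM in DP and from 13446 to 20822 CPM in DR mice. That sum was mostly miR-21a-5p, with a mean of 18739 CPM, where miR-146a-5p, the next highest, had 1368 CPM. Of 3 endothelial miRNAs 2 fell (summed level 55457 to 79501 CPM in DP and 69424 to 99174 CPM in DR mice), and of 4 smooth muscle miRNAs 2 fell (20489 to 29666 CPM and 28167 to 42167 CPM). Of 6 adipocyte miRNAs 3 fell and 1 rose (3687 to 5780 CPM and 5362 to 9479 CPM), and none of the markers in these lists was at 0 in the tissue. With edgeR at an adjusted p under 0.05, 0 of 4 erythroid, 0 of 3 skeletal muscle, 0 of 1 liver and 0 of 1 pancreatic islet miRNAs passed.
miR-142a-3p, a leukocyte miRNA, had a group-centred r of 0.68 with miR-24-2-5p and 0.53 with miR-24-1-5p over the 29 mice, and of 0.08 with miR-27b-3p and -0.05 with miR-23b-5p. For miR-223-3p, another myeloid miRNA, r was only 0.08 with miR-24-2-5p (rho = -0.03) and 0.24 with miR-24-1-5p. miR-193b-3p, an adipocyte miRNA that was itself lower in DP mice (log2 fold change -0.82, adjusted p = 1.54e-04), had a negative r with all 10 mature members, from -0.48 for miR-23b-5p to -0.04 for miR-24-2-5p. miR-455-5p of the same list was higher in DP mice (0.67, adjusted p = 8.42e-06). Among the adipocyte miRNAs, r with the members is given for miR-193b-3p alone. Signs were mixed for endothelial miR-126a-3p, with r from -0.36 (miR-24-1-5p) to 0.41 (miR-27a-5p). They were also mixed for smooth muscle miR-143-3p, from -0.35 (miR-24-2-5p) to 0.36 (miR-27a-5p). These markers were named outside the rule, after their values were seen. The part of cell makeup in the member values was not tested.

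Library number, which the titles give and whose meaning the labels do not state, was below 200 in 10 DP and 6 DR libraries and 200 or above in 5 DP and 8 DR libraries. Member levels followed it to different degrees, with r from -0.36 for miR-27a-3p to 0.61 for miR-23a-3p in the mature rows. With library number as a term of the fit, 9 of the 20 member rows passed, as without it. In the libraries below 200 alone 10 of 20 member rows passed, where 25.9% of all rows passed, and all 20 were higher in DP. miR-27a-3p was the additional call there (log2 fold change 0.31, adjusted p = 0.00510).
In the libraries from 200 on, 0 of 20 members passed with edgeR, where 0.344% of all rows passed. Of these 20, 7 had an unadjusted p under 0.05 and 16 were higher in DP. miR-23b-5p had a log2 fold change of 0.77 there (adjusted p = 0.0589) and miR-27a-5p one of 0.51 (adjusted p = 0.0564), while miR-27a-3p had one of -0.01. The difference in effect between the parts of the library numbers was itself tested. It passed for 0 of 1162 rows with edgeR, with 72 at an unadjusted p under 0.05, and among the members miR-27b-3p had the lowest p (mature, unadjusted p = 0.0432, adjusted p = 0.784).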

How the data were processed

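Small RNA libraries of gWAT from 15 DP and 14 DR mice were analysed, 1 library per mouse. The deposited values are raw counts per small RNA, whole numbers without normalization. The authors used BGISEQ-500 sequencing and took the miRNA annotation from miRDeep2. The submitters' processing notes name Bowtie2 and mm10, the assembly that GRCm38 denotes, with versions not given. How multi-matching reads or strand were treated is not given in the sources used here. Only mature and hairpin rows were used. Rows that name no RNA (6.89% to 12.1% of a library's counts) and named rows of other small RNA types were left out.

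Mature and hairpin rows with a mean count above 10 (574 and 588) were fitted together with edgeR 4.0.16 in R 4.3.3, with TMM scaling, the quasi-likelihood F-test and Benjamini-Hochberg adjustment, at an adjusted p under 0.05. Mature and hairpin counts were 20385384 to 23214934 per library. CPM are counts scaled to library size, the sum of the rows fitted, with TMM factors. Library totals, an alternative scaling, are the summed mature and hairpin counts without TMM factors. SD, SE and p values are over mice. Ratios were log2 CPM differences within a library (prior count 2), fitted with limma 3.58.1 over all 453 paralog pairs or 302 stems. Permutation tests were two-sided with 100000 permutations. SE of a log2 fold change is the value divided by the root of F.

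Members and lists were chosen with earlier results of these data known. Named were the members, miR-24-3p, tested miRNAs within 100 kb, the 3 mature rows most like each member (not all printed) and list examples. Alternatives were other scalings, filters, tests (DESeq2 1.42.0 among them), library number, prior counts, and each library left out. Antisense sums and the interaction with library number were chosen after seeing the data. The edgeR quasi-likelihood fit and the paralog and arm ratios were tested on simulated data, and the other steps were not.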

Additional observations from a re-analysis of the deposited data

How the results depend on the processing

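Calls of the members held under other scalings and tests more than between parts of the library numbers. Members that passed were 9 of 20, and 5 of 10 with mature rows alone, 8 to 10 with each library left out and 0 in libraries from 200 on. Calls over the whole table were 301, 153 with mature rows alone, 4 in libraries from 200 on and 276 to 322 with each library left out. Paralog ratios that passed were 111, 64 with mature rows alone, 0 from 200 on and 103 to 116 with each library left out. Arm ratios that passed were 8, 5 with mature rows alone, 5 below 200, 0 from 200 on and 4 to 10 with each library left out. The sums of 3p arms passed in 0 of 4 cases, in 2 below 200 and in 0 to 2 with each library left out. Fewer rows were tested with mature rows alone and fewer libraries in each part. The cause of the other shifts was not tested.

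The mature ratio of miR-24-1-5p over miR-24-2-5p was 0.31 from 200 on (adjusted p = 0.318) and 0.23 with antisense partners summed (0.0804), and 0.38 to 0.45 with each library left out. The hairpin ratio of miR-27b-5p over miR-27a-5p passed in neither part of the library numbers (0.50, adjusted p = 0.135 below 200, and 0.59, 0.203 from 200 on). The mature ratio of miR-23b-3p over miR-23a-3p was 0.14 by the permutation test (unadjusted p = 0.0408) and 0.12 to 0.19 with each library left out. That of miR-27b-5p over miR-27a-5p was -0.0326 to 0.0468 with each library left out.

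Signs turned only for values that did not pass. On the log2 scale, miR-23a-3p was 0.0032 (mature) and 0.0173 (hairpin) below 200, and 0.0237 (mature) with library totals. The hairpin sum of miR-23a-3p and miR-23b-3p was 0.0204 below 200, and the mature sum -0.0147 to 0.0245 with each library left out. The hairpin row of miR-23b-3p was -0.0104 without the filter and -0.0036 to 0.0396 with each library left out. From 200 on, miR-27a-3p was -0.0050 (mature) and -0.0024 (hairpin) and the hairpin ratio of miR-23b-5p over miR-23a-5p was -0.0390. The hairpin ratio of miR-24-1-5p over miR-24-2-5p was -0.0760 with antisense partners summed. The hairpin arm ratio of miR-27a was 0.13 from 200 on, 0.0246 and 0.0084 with library number as a 2-level or linear term, and -0.114 to 0.0053 with each library left out. The mature arm ratio of miR-27b was -0.0154 below 200.

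With library totals miR-24-2-5p passed (mature, 0.30, adjusted p = 0.0235), and without the filter the hairpin row of miR-24-1-5p did not (0.32, adjusted p = 0.122). No paired analysis was possible because the labels give no replicate numbers that the groups share. Nothing beyond 1 library per mouse is known of repeats. The interval of miR-23a-5p (-0.39 to 0.90) was the widest of the mature members, at a mean count of 19.4 and 5 to 54 counts per library.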

Other observations

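The hairpin row of miR-3074-5p, which lies opposite miR-24-3p in both clusters, fell into separate ranges of counts. In 9 DP libraries it held 5 to 85 counts and in the other 6 it held 27056 to 74747. In 4 DR libraries it held 12 to 53 counts and in the other 10 it held 14628 to 89842. The mature row of miR-3074-5p had a mean count of 15.0, and the hairpin row of miR-24-3p held at least 160611 counts in every library. The cause of the split was not tested.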
